A study of Mus musculus with 12 samples.

Results

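The genotype by compartment interaction asks, gene by gene, whether the difference between *Cdk1* Liv-/- and wild type (WT) mice is the same in isolated hepatocytes as in whole liver. For each gene it takes the hepatocyte change (*Cdk1* Liv-/- minus WT) and subtracts the whole liver change, on log2(FPKM + 0.5), where FPKM is the read count of a gene scaled to transcript length and to library size. All genes with a mean of at least 1 FPKM over the samples enter, which is 12282 of the 47069 genes listed, and 12 of the 12 samples of the series are used. The result is called the interaction difference here: above 0 the hepatocyte change is the higher of the pair, below 0 the whole liver change is.

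The samples form 4 groups of 3 RNA-seq libraries: hepatocytes and whole liver of WT and of *Cdk1* Liv-/- mice, each at postnatal day 14 (P14) on a standard diet. *Cdk1* Liv-/- mice carry *Cdk1* flox/flox alleles with Albumin-Cre, a recombinase driven by the albumin promoter, so *Cdk1* is removed in hepatocytes while other liver cells keep it, and the methods state that males alone were used. Polyadenylated RNA from pelleted hepatocytes or from homogenized tissue was made into stranded libraries and read from 1 end over 75 bp. Replicates are labelled as separate samples and the methods give at least 3 biological replicates, but no label ties a library to an animal, and the labels do not say whether the WT mice carry either transgenic allele. Libraries are named below by compartment, genotype and replicate, with KO for *Cdk1* Liv-/-, as in Hepatocyte WT 3.

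A liver is mostly hepatocytes by mass, with sinusoidal endothelial cells, Kupffer cells (the resident macrophages), stellate cells and blood cells between the hepatocyte plates. Hepatocytes make albumin and the acute phase proteins of plasma, and run urea synthesis, amino acid breakdown, bile acid synthesis and drug metabolism. Collagens, scavenger receptors and many cytokines come in large part from the other cells, which a hepatocyte preparation is meant to leave behind and a piece of whole liver holds.

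*Cdk1*, the targeted gene, encodes the kinase that drives cells into mitosis. Its level was 27.9, 20.4 and 28.2 FPKM in the WT hepatocyte libraries, 9.68, 11.8 and 6.87 in KO hepatocytes, 25.3, 22.7 and 21.5 in WT whole liver, and 11.7, 12.1 and 14.2 in KO whole liver. Every KO library lay below every WT library of its compartment, so the labels hold for this gene, and a residual level was read in all 6 KO libraries. A gene level counts every exon of *Cdk1*, also those outside the deleted stretch. *Cdk1* fell by 1.40 in hepatocytes and by 0.85 in whole liver on the log2 scale, and the interaction difference of -0.55 (SE 0.26, limma adjusted p = 0.214) was not called.

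Defining markers of hepatocytes were high in all samples. *Alb* was at 60008, 64298 and 62222 FPKM in WT hepatocytes, 41868, 44889.8 and 39898 in KO hepatocytes, 58998, 56843 and 61172 in WT whole liver, and 47348, 43328 and 46153 in KO whole liver. Hepatocyte libraries thus carried this transcript near the level of whole liver in each genotype, and the interaction difference of *Alb*, at -0.19 (limma adjusted p = 0.454), was not called. Markers of other liver cells were present in the hepatocyte libraries as well, and not evenly. The summed FPKM of 32 sinusoidal endothelial genes was 350.4, 237 and 658 in WT hepatocytes and 166, 101 and 113 in KO hepatocytes, beside 371, 425 and 477 in WT and 442, 556 and 455 in KO whole liver. Hepatocyte WT 3 was thus above all WT whole liver libraries and the KO hepatocyte libraries were the lowest of all, and in bulk RNA fewer cells of a type and less RNA per cell cannot be told apart. Stellate, Kupffer and erythroid sums had the same highest hepatocyte library, as the plot of marker sums shows.

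**Figure D1:**
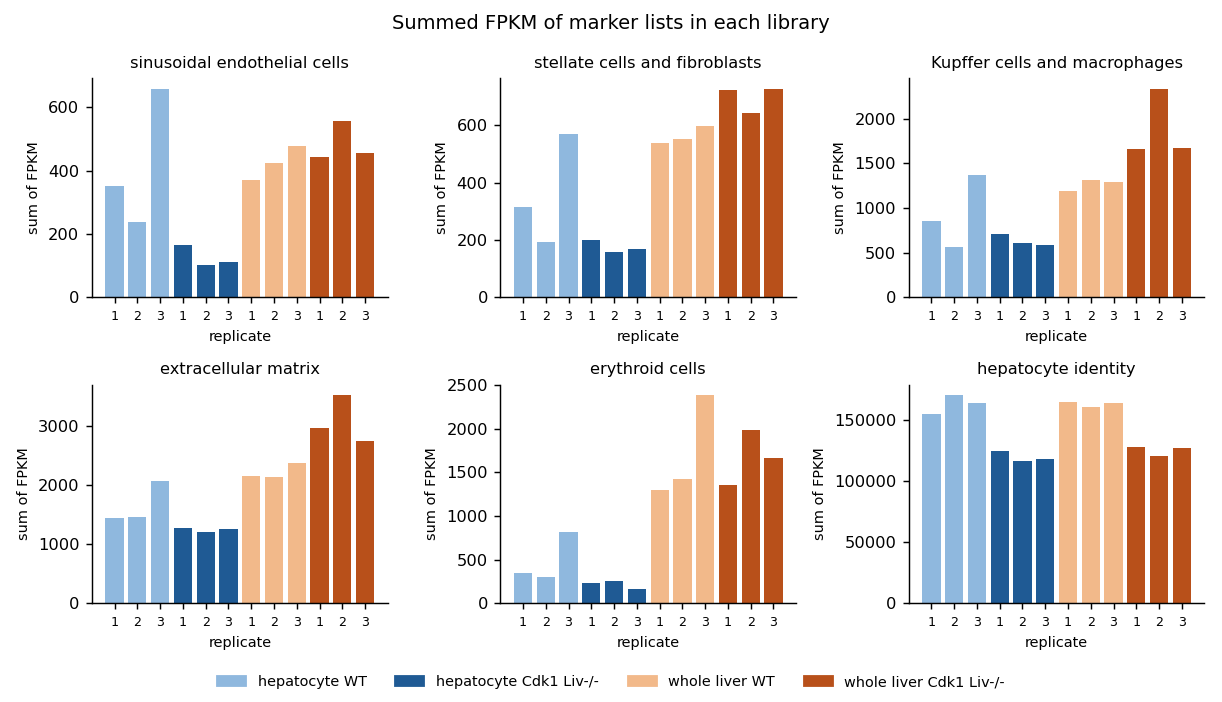
Summed FPKM of 6 gene lists in each of the 12 libraries, with bars from 0 and colours for the 4 groups. Hepatocyte WT 3 holds the highest bar of the hepatocyte libraries for endothelial (658), stellate (568), Kupffer (1374), matrix and erythroid genes, while the hepatocyte identity sums of the WT groups lie between 154592 and 170350.0.

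Several libraries stood apart from their group, and many results are given with and without them. Hepatocyte WT 3 scored 18.6 on the first principal component (37.7% of the variance), beside 19.2, 24.2 and 25.5 for WT whole liver and -13.5 and -19.6 for the other WT hepatocyte libraries. On this axis it thus lay beside whole liver, away from the rest of its group, and on the next component it scored 27.0, beside 26.8, 24 and 23.2 for WT whole liver and 36.2 and 44.2 for the other WT hepatocyte libraries. Other values of this library lay with hepatocytes or between the compartments. *Il1b* was at 4.78 FPKM, beside 4.43 and 3.83 in the other WT hepatocyte libraries and 0.930 to 1.70 in WT whole liver, and *Prok1* was at 11.4, beside 18.8 and 15.5, and 4.53 to 6.45. *Col1a1* was at 9.4 FPKM, beside 1.98 and 0.840, and 18.9 to 26.0, and the sum of erythroid genes was 813, beside 344 and 298, and 1301 to 2387. No WT whole liver library lay with hepatocytes on the first component. Whether Hepatocyte WT 3 was a less pure preparation or its label was exchanged was not tested, and the labels are used as given. Liver KO 3 had *Xist*, the transcript of the inactive X chromosome, at 158 FPKM, where the other 11 libraries were at 0 to 0.140, and it alone had 0 FPKM for *Kdm5d*, *Uty*, *Eif2s3y* and *Ddx3y* of the Y chromosome. This pattern goes against the stated use of males for that library. Liver KO 2 was low in pericentral transcripts: *Cyp2e1* was at 363 FPKM in it, against 2068 and 1618 in the other KO whole liver libraries and 2241, 2649 and 1774 in WT whole liver.

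Over all genes tested, 366 (2.98%) had an interaction difference above 0 and 1116 (9.09%) below 0 at a limma adjusted p of at most 0.1, and with a size of at least 1 log2 as well they were 123 (1.00%) and 514 (4.18%). The balance of these counts moved with scaling. Among called genes, 75.3% were below 0, and the median of all genes was -0.10, with 0.07 for the hepatocyte change and 0.20 for the whole liver change. After division by median-ratio size factors the median was 0.01 and the counts were 502 above and 487 below 0, so 49.2% were below. The medians of many gene lists are therefore also given relative to the -0.10 of all genes. Counts of called genes in each list can be set beside the 2.98% above and 9.09% below 0 of all genes. The counts were lowest, at 17 and 16, without Liver WT 1, and were 91 and 166 at a threshold of 0.05. Without Hepatocyte WT 3 they were 219 and 646, and without Liver KO 3 they were 191 and 441. Without both Hepatocyte WT 3 and Liver KO 3 they were 100 and 265. Of the 1482 called genes, 33 were called in every one of the 12 fits that left out 1 library. Calls of single genes and counts of lists were often lost in several of these fits.

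**Figure D2:**
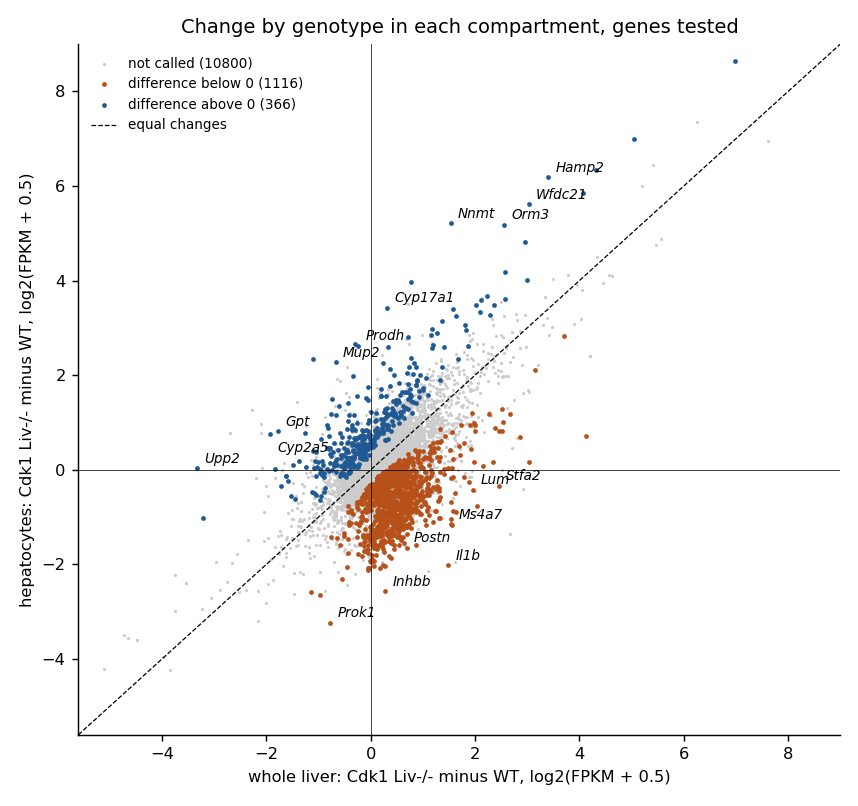
Change by genotype in hepatocytes (vertical axis) against the change in whole liver (horizontal axis), both in log2(FPKM + 0.5), with 1 point for each of the 12282 genes tested and the dashed line where both are equal. The 366 genes called above 0 lie to the upper left of the line and the 1116 called below 0 to the lower right, and some of the genes with the highest and lowest differences are named.

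Sorting the called genes by what each compartment did separates a few kinds of behaviour. In hepatocytes 2941 genes (23.9%) were higher and 1697 (13.8%) lower in KO than in WT, and in whole liver 4118 (33.5%) were higher and 821 (6.68%) lower. These shares move with scaling too: after size factors 3212 genes were called for the whole liver change, with a median of 0.02. The fit takes the same spread for all 4 groups of a gene, so both of its changes have the same SE. Whether a change is called in 1 compartment thus also depends on scatter in the other. *Mup3*, with an SE of 0.43 for both changes, had an SD of 23.4 FPKM in KO hepatocytes and 0.462 in KO whole liver. Of the 366 genes called above 0, 144 were higher in hepatocytes and not called in whole liver, 100 were higher in both, 82 were lower in whole liver and not called in hepatocytes, and 29 moved in opposite directions, higher in hepatocytes and lower in whole liver. Rises of hepatocyte preparations and losses of whole liver thus both feed the upper side. Of the 1116 genes called below 0, 516 were lower in hepatocytes and not called in whole liver, 399 were higher in whole liver and not called in hepatocytes, and 110 moved oppositely. Without any test, all 3 KO libraries lay below all 3 WT libraries in hepatocytes and above them in whole liver for 321 genes (2.61%), and the reverse held for 47 (0.383%).

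Among the genes that rose further in hepatocytes than in whole liver were some of the acute phase proteins, which the liver releases into plasma in inflammation. Interleukin-6 acting through STAT3, interleukin-1 through NF-kB, and C/EBP factors are the known switches of these genes. Of 31 acute phase genes tested, 7 were called above 0 and 1 below (22.6% and 3.23%, beside 2.98% and 9.09% of all genes), and their median interaction difference was 0.16, or 0.26 relative to all genes. The median change was 1.14 in hepatocytes and 0.90 in whole liver, with 23 genes higher in hepatocytes and 18 in whole liver, and the 7 were a minority of it: *Hamp2*, *Orm3*, *Saa1*, *Saa2*, *Saa3*, *Saa4* and *Orm1*, of which those other than *Hamp2* and *Orm3* are named after their values were seen. *Hpx*, the most abundant member, was at 3353, 3369.6 and 3566 FPKM in WT hepatocytes, 5805, 8069.6 and 8278 in KO hepatocytes, 3306, 3211 and 3755 in WT whole liver and 5998, 9569 and 6142 in KO whole liver, and its difference was 0.04. *Hpx*, which encodes a binder of free heme, thus rose alike in both. *Cp*, the copper carrier ceruloplasmin, was the 1 gene called below 0 (-0.55, limma adjusted p = 0.0908). The median lay between 0.04 (without Hepatocyte KO 3) and 0.27 (without Hepatocyte KO 2). Without Liver WT 1 no acute phase gene was called, and the count above 0 was 4 without Hepatocyte WT 3, 5 without Liver KO 3 and 3 without Liver WT 2.

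*Hamp2* is a paralog of hepcidin, the hormone that limits iron export. It was at 5.18, 4.95 and 2.88 FPKM in WT hepatocytes, 629, 343 and 189.7 in KO hepatocytes, 3.37, 3.71 and 5.15 in WT whole liver, and 85.6, 14.5 and 83.2 in KO whole liver. Both compartments rose with no overlap of genotypes, and the lowest KO hepatocyte library lay above the highest KO whole liver library. The changes of 6.19 and 3.40 differ by 2.79 (SE 0.88, limma adjusted p = 0.0891), and the call was lost in 8 of the 12 fits without 1 library. *Orm3*, an orosomucoid gene for a plasma carrier protein, was at 0.110, 0.0400 and 0 FPKM in WT hepatocytes, 31.6, 10 and 22.7 in KO hepatocytes, 0.170, 0.140 and 0.130 in WT whole liver, and 4.30, 2.29 and 3.62 in KO whole liver. Its difference was 2.62 (SE 0.48, limma adjusted p = 0.0357), and Liver WT 1 was the 1 library without which it was not called (adjusted p = 0.113). *Wfdc21*, a whey acidic protein family gene, went from 4.23, 3.59 and 3.46 to 313, 113 and 249 FPKM in hepatocytes and from 4.93, 3.06 and 3.33 to 27.0, 36.4 and 39.3 in whole liver. That is a rise in each compartment with the larger in hepatocytes, by a difference of 2.58 (SE 0.45, limma adjusted p = 0.0336, and 0.11 without Liver WT 1).

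Promoters of 4 of the acute phase genes called above 0 are shown, so that their shared and unshared motif letters can be seen. They come from RefSeq on GRCm38.p6, from 250 bases before to 50 after the start site, and capitals mark matches to any of 6 motifs searched on both strands: C/EBP as TTGCNNAA, NF-kB as GGNNTTTCC, STAT as TTCNNNGAA, HNF1 as GTTAATNA, AP-1 as TGANTCA and the TATA box as TATAAA. Of all 32851 promoters in the table, 10.8% hold the C/EBP letters, 5.82% NF-kB, 8.30% STAT, 2.54% HNF1, 7.81% AP-1 and 13.6% the TATA box. *Hamp2* (chr7:30924132-30924431, minus strand) has a STAT match at -94 to -86 and an AP-1 match at -84 to -78, and *Orm3* (chr4:63355908-63356207, plus strand) has AP-1 at -208 to -202, C/EBP at -121 to -114 and a TATA box at -29 to -24. *Saa1* (chr7:46742931-46743230, minus strand) and *Saa2* (chr7:46751583-46751882, plus strand) have a C/EBP match at -182 to -175 and at -183 to -176. These are matches of letters, not measured binding.
Hamp2: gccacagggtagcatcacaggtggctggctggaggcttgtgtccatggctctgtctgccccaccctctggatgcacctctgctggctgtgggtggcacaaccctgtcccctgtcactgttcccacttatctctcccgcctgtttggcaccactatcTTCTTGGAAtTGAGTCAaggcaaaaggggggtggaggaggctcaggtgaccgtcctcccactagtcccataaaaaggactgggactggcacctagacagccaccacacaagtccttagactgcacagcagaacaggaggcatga
Orm3: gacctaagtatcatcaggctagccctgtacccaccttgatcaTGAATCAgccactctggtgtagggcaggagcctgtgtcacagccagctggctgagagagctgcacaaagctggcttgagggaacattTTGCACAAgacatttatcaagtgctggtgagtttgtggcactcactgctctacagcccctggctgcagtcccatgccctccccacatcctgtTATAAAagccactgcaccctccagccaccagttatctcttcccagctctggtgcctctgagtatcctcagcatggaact
Saa1: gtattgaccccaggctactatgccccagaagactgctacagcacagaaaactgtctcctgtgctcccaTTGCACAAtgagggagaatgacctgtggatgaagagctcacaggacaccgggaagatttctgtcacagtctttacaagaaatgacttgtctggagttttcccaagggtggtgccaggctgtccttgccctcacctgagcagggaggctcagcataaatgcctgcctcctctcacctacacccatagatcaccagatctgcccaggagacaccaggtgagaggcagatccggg
Saa2: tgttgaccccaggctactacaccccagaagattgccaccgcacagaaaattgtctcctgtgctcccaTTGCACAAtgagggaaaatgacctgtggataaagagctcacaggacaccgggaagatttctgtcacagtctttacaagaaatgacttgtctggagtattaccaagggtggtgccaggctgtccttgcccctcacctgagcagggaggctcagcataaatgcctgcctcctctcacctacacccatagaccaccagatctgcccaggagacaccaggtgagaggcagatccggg

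*Saa1* and *Saa2* encode serum amyloid A proteins, lie side by side on chromosome 7 and share long stretches of sequence, so reads may have been split between them. *Saa1* was at 6.69, 3.51 and 3.90 FPKM in WT hepatocytes, 261, 219 and 432 in KO hepatocytes, 6.78, 8.02 and 8.07 in WT whole liver, and 139, 169 and 103 in KO whole liver. *Saa2* was at 1.65, 0.870 and 1.5 FPKM in WT hepatocytes, 128, 109 and 218 in KO hepatocytes, 1.79, 2.19 and 2.54 in WT whole liver and 53.5, 63.4 and 42.8 in KO whole liver. In this pair too the KO hepatocyte libraries were the highest group without overlap, with differences of 1.80 and 2.01 (limma adjusted p = 0.0488 and 0.0349). The same uncertainty of shared reads holds for *Hamp2* with *Hamp*, for *Orm3* with *Orm1* and *Orm2*, and for the Mup genes. *Hamp* itself, named after its values were seen, went from 0.890, 1.14 and 0.570 to 202, 110.3 and 71.9 FPKM in hepatocytes and from 0.450, 0.590 and 1.49 to 81.0, 36.8 and 50.2 in whole liver, and its difference of 1.05 (limma adjusted p = 0.283) was not called.

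Some metabolic genes rose in KO hepatocytes without a called change in whole liver. *Nnmt*, which methylates nicotinamide, was at 0.930, 0.590 and 2.98 FPKM in WT hepatocytes, 86.2, 42.8 and 72.9 in KO hepatocytes, 2.52, 1.14 and 5.23 in WT whole liver, and 4.23, 24.2 and 5.31 in KO whole liver. Whole liver of the genotypes overlapped, and a single library, Liver KO 2, reached 24.2. The difference of 3.68 was the largest of all called genes (SE 0.94, limma adjusted p = 0.0591), was 4.43 without Liver KO 2, and was not called without Liver WT 1, Liver WT 3 or Liver KO 3 (adjusted p = 0.146, 0.111 and 0.108), or without both Hepatocyte WT 3 and Liver KO 3 (0.101). *Cyp17a1*, a steroid hydroxylase, was at 0.960, 1.79 and 3.39 FPKM in WT hepatocytes, 46.9, 12.9 and 24.9 in KO hepatocytes, 2.14, 1.10 and 3.75 in WT whole liver, and 1.77, 5.36 and 2.14 in KO whole liver. KO hepatocytes alone stood out, by a difference of 3.10 (SE 0.77, limma adjusted p = 0.0562). It was not called without Liver WT 1 (adjusted p = 0.143 by limma), Liver WT 3 (0.108), Liver KO 3 (0.104), or both Hepatocyte WT 3 and Liver KO 3 (0.101). *Prodh*, the first enzyme of proline breakdown, was at 10.5, 7.54 and 3.93 FPKM in WT hepatocytes, 48.0, 32.6 and 55.7 in KO hepatocytes, 12.1, 11.2 and 5.97 in WT whole liver, and 12.0, 3.53 and 11 in KO whole liver. Its whole liver groups overlapped as well, and its difference was 2.86 (SE 0.65, limma adjusted p = 0.0506, with 0.142 without Liver WT 1 and 0.103 without Liver WT 2).

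Lipid synthesis contributed *Thrsp*, a nuclear protein that goes with lipogenesis. It was at 4.18, 3.55 and 1.18 FPKM in WT hepatocytes, 18.3, 20.3 and 19.9 in KO hepatocytes, 3.24, 1.49 and 1.26 in WT whole liver, and 1.45, 0.380 and 3.60 in KO whole liver, a difference of 2.96 (SE 0.75, limma adjusted p = 0.0582). The call was lost in 6 of the 23 alternative settings, among them without Liver WT 1 (0.154), Liver WT 2 (0.103) and Liver KO 2 (0.109, with a difference of 2.39). Of 20 lipogenesis genes tested, 4 were called above 0 and 1 below, beside 2.98% above and 9.09% below of all genes. The list median was 0.49, or 0.59 relative to all genes. *Scd1*, the main desaturase, and *Elovl6*, an elongase, were the others of the 3 largest: *Scd1* went from 5.33, 4.32 and 8.09 to 35.1, 119.6 and 64.4 FPKM in hepatocytes and from 4.38, 6.41 and 8.18 to 17.5, 19.3 and 21.5 in whole liver. Both of these rose in each compartment, with differences of 1.81 and 1.14 (limma adjusted p = 0.0803 and 0.0868). *Elovl5*, an elongase of polyunsaturated chains, lay on the other side: it went from 220.5, 249 and 211 to 143, 156 and 120.5 FPKM in hepatocytes, from 194, 215 and 216 to 237, 193 and 226 in whole liver, and had a difference of -0.76 (limma adjusted p = 0.0472). Without Liver WT 1 no gene of the list was called. The median was 0.32 without Hepatocyte WT 3 and lowest, at 0.21, without Hepatocyte KO 2, when 6 were called above and 2 below 0.

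*Mup2* and *Mup3* encode major urinary proteins, which male mouse livers secrete after puberty. *Mup2* was at 1.31, 1.57 and 0.650 FPKM in WT hepatocytes, 8.93, 6.57 and 6.72 in KO hepatocytes, 2.54, 1.52 and 1.81 in WT whole liver, and 1.10, 0.820 and 1.18 in KO whole liver. The genotypes did not overlap in either compartment and moved in opposite directions, with a difference of 2.93 (SE 0.33, limma adjusted p = 0.00511) that was called in all 23 alternative settings. *Mup3* was at 1.95, 1.67 and 1.64 FPKM in WT hepatocytes, 61.4, 15.1 and 44.1 in KO hepatocytes, 1.33, 0.730 and 2.11 in WT whole liver and 2.35, 3.16 and 2.37 in KO whole liver. It was higher in KO in both compartments without overlap, though the whole liver change of 0.78 was not called (limma adjusted p = 0.182), and its difference was 3.18 (SE 0.60, adjusted p = 0.038, and 0.117 without Liver WT 1). Mup copies are near-identical, so the split of reads among them is uncertain.

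**Figure D3:**
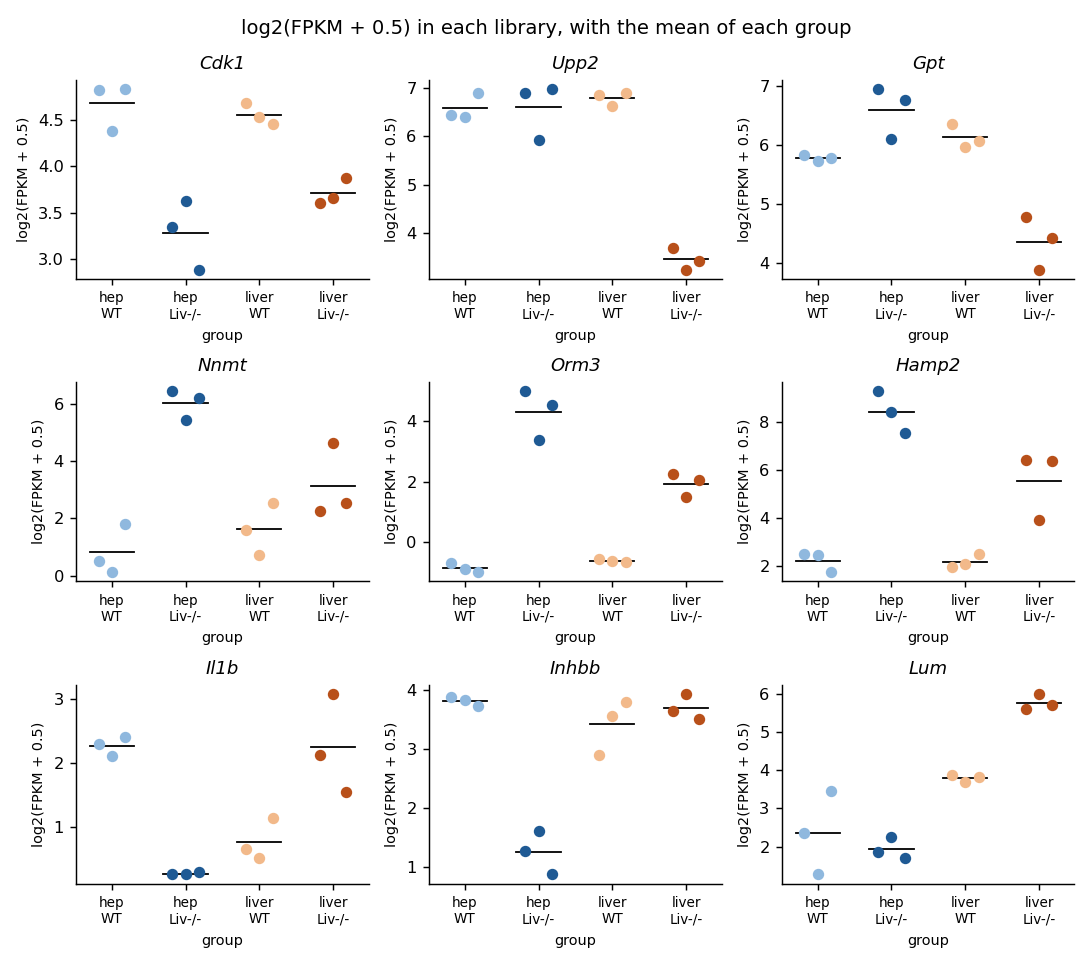
Values of 9 genes in log2(FPKM + 0.5), with 1 point for each of the 3 libraries in the 4 groups and a line at the group mean. *Cdk1* is lower in KO in both compartments, *Upp2* and *Gpt* are low in KO whole liver, *Nnmt*, *Orm3* and *Hamp2* are highest in KO hepatocytes, *Il1b* moves in opposite directions, *Inhbb* is low in KO hepatocytes and *Lum* is highest in KO whole liver.

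Some of the largest differences above 0 came with a fall in whole liver. *Upp2*, a liver uridine phosphorylase, was at 86.6, 84.0 and 118 FPKM in WT hepatocytes, 119, 60.6 and 126 in KO hepatocytes, 116, 97.7 and 119 in WT whole liver, and 12.5, 9.03 and 10.3 in KO whole liver. Only the KO whole liver libraries were low, without overlap with any of the other 9. Whole liver fell by 3.33 on the log2 scale (limma adjusted p = 1.15e-05), hepatocytes changed by 0.03 (adjusted p = 0.948), and the difference of 3.36 (SE 0.36, adjusted p = 0.00511) was called in all 23 alternative settings, between 3.17 and 3.70. *Gpt*, alanine aminotransferase, was at 57.0, 52.6 and 55.0 FPKM in WT hepatocytes, 124, 68.2 and 108 in KO hepatocytes, 82.1, 62.4 and 67.1 in WT whole liver, and 27.1, 14.4 and 21 in KO whole liver. It moved in opposite directions, by 0.82 and -1.77, and the difference of 2.59 (SE 0.34, limma adjusted p = 0.011) was also called in all 23. *Cyp2a5*, a coumarin hydroxylase with near-identical neighbours such as *Cyp2a4*, was at 26.8, 21.7 and 13.1 FPKM in WT hepatocytes, 57.8, 13.7 and 46.3 in KO hepatocytes, 53.1, 59.5 and 24.1 in WT whole liver, and 12.4, 9.30 and 10.7 in KO whole liver. Its hepatocyte groups overlapped, whole liver fell by 1.93, and the difference of 2.68 (SE 0.71, limma adjusted p = 0.0626) was not called in 7 of the 12 fits without 1 library, among them 0.158 without Liver WT 1.

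Urea synthesis and amino acid breakdown belong to hepatocytes near the portal vein. Of 23 periportal genes tested, 7 were called above 0 and 1 below (30.4% and 4.35%, beside 2.98% and 9.09% of all genes). The median difference was 0.56, or 0.66 relative to all genes, from medians of -0.08 in hepatocytes and -0.49 in whole liver. The list median lay between 0.40 and 0.77 over the fits without 1 library, with 2 genes called above 0 without Liver WT 1, 7 without Hepatocyte WT 3 and 5 without Liver KO 3. *Cps1*, which makes carbamoyl phosphate for the urea cycle, was at 764, 625 and 618 FPKM in WT hepatocytes, 851, 1166 and 1186 in KO hepatocytes, 708, 555 and 630.0 in WT whole liver, and 305, 325 and 346 in KO whole liver. Opposite changes of 0.66 and -0.95 gave it a difference of 1.61 (SE 0.20, limma adjusted p = 0.0089). *Ass1*, the enzyme that joins citrulline and aspartate, was at 923, 1109 and 1179.7 FPKM in WT hepatocytes, 1720.5, 1351 and 1381 in KO hepatocytes, 1538, 1087 and 1285 in WT whole liver, and 650.0, 719.6 and 811 in KO whole liver, with a difference of 1.30 (SE 0.21, limma adjusted p = 0.0287). Of further enzymes of the cycle, chosen after their values were seen, *Asl* was called above 0 as well (0.83, limma adjusted p = 0.0487) and *Otc* was not (0.43, adjusted p = 0.254). *Cyp2f2*, a periportal P450, went from 55.0, 69.5 and 73.6 to 109, 34.6 and 77.9 FPKM in hepatocytes and from 77.0, 56.0 and 58.1 to 21.2, 16 and 15.3 in whole liver. KO hepatocytes straddled the WT values while whole liver fell without overlap, and the difference was 1.86 (limma adjusted p = 0.0591). *Ctsc*, a lysosomal protease that is also found in immune cells, was the periportal gene called below 0, at -1.43.

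Over the wider list of hepatocyte identity, 13 of 45 genes tested were called above 0 (28.9%, beside 2.98% of all genes) and 0 below (9.09% of all genes). The median was 0.10, or 0.20 relative to all genes. In whole liver 22 of these genes were lower in KO and 3 higher, and in hepatocytes 14 were lower and 9 higher. Of all genes, 6.68% were lower and 33.5% higher in whole liver, and 13.8% lower and 23.9% higher in hepatocytes. *Tdo2*, which opens tryptophan breakdown, was at 321, 280.4 and 281 FPKM in WT hepatocytes, 432, 221 and 388 in KO hepatocytes, 323, 262 and 257 in WT whole liver, and 108, 114 and 100.1 in KO whole liver. It fell in whole liver alone among these groups, with a difference of 1.56 (SE 0.29, limma adjusted p = 0.0374). The 3 smallest differences, of the plasma protein genes *Apoa1*, *Ttr* and *Kng1*, lay between -0.57 and -0.26 and none was called. Summed over the list, FPKM was 154592, 170350.0 and 164101 in WT hepatocytes, 124809, 116771 and 118241 in KO hepatocytes, 164429, 160791 and 163604 in WT whole liver and 128033, 120179 and 126717 in KO whole liver. This total, with *Alb* as its most abundant member, was lower in KO by a like amount in each compartment while single enzymes were not. Without Liver WT 1 the count above 0 was 3, and it was 6 without Hepatocyte WT 3 and 6 without Liver KO 3.

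Near the central vein, hepatocytes hold drug and bile acid enzymes, and this list leaned on several single libraries. Of 26 pericentral genes tested 5 were called above 0 and 1 below (19.2% and 3.85%, beside 2.98% and 9.09% of all genes). The median was 0.38, or 0.48 relative to all genes. Without Liver KO 2 it was -0.01 with counts of 2 and 1, and without Hepatocyte WT 3 it was 0.20 with 2 and 1. Without Liver WT 2 it was 0.25 with 1 and 1, and without Liver WT 1 it was 0.33 and none was called. Summed FPKM of the list was 4515, 4197 and 2820.4 in WT hepatocytes, 3954, 3156 and 3761 in KO hepatocytes, 4719, 5349 and 3709.7 in WT whole liver and 4582, 1527 and 4188 in KO whole liver. That low Liver KO 2 value moves with the list's difference, and its part in it was not tested. *Oat*, ornithine aminotransferase, was at 50.8, 34.8 and 36.1 FPKM in WT hepatocytes, 436, 246 and 209.8 in KO hepatocytes, 71.7, 56.2 and 64.3 in WT whole liver, and 129, 54.1 and 166 in KO whole liver, a difference of 2.09 (SE 0.53, limma adjusted p = 0.0597). *Cyp7a1*, the rate-limiting enzyme of bile acid synthesis, was at 22, 17.2 and 13.9 FPKM in WT hepatocytes, 28.1, 52.5 and 41.4 in KO hepatocytes, 14.3, 18.5 and 18.4 in WT whole liver, and 9.69, 8.19 and 14.3 in KO whole liver. It rose in hepatocytes and fell in whole liver, by 1.16 and -0.67, with a difference of 1.83 (SE 0.36, limma adjusted p = 0.0399). *Cyp39a1* and *Cyp27a1*, further bile acid hydroxylases, had differences of 1.29 and 1.19 (limma adjusted p = 0.046 and 0.0768), and 4 of 27 bile acid genes tested were called above 0 (14.8%, beside 2.98% of all genes) and 0 below. Among 48 cytochrome P450 genes tested 7 were called above 0 (14.6%, beside 2.98% of all genes) and 0 below. Their median was 0.23, or 0.33 relative to all genes. It was 0.12 without Liver KO 2, whose sum of the list was 3825 FPKM beside 6854 and 6637 in the other KO whole liver libraries, and 0.40 without Liver KO 3. Without Liver WT 1 no bile acid or P450 gene was called.

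Sinusoidal endothelial genes lay below 0, and most of them were lower in the KO hepatocyte preparations. Sinusoidal endothelial cells line the liver's capillaries and are marked by scavenger and growth factor receptors. Of 30 such genes tested, 22 were called below 0 (73.3%, beside 9.09% of all genes) and 0 above (2.98% of all genes), and the median difference was -1.63, or -1.53 relative to all genes. In hepatocytes 28 were lower in KO and 1 higher, with a median of -1.51, and in whole liver 1 was higher and 0 lower, with a median of 0.06 (-0.13 after size factors). Of all genes, 13.8% were lower and 23.9% higher in hepatocytes, and 33.5% higher and 6.68% lower in whole liver. *Egfl7*, the most abundant of the list, was at 43.0, 27.9 and 76.4 FPKM in WT hepatocytes, 18.2, 8.63 and 7.47 in KO hepatocytes, 48.4, 54.4 and 62.6 in WT whole liver, and 52.8, 86.2 and 64.4 in KO whole liver. Its difference was -2.32 (SE 0.53, limma adjusted p = 0.0506), and no marker of the list was at 0 in every library. Counts called below 0 were 21 without Hepatocyte WT 3, 13 without Liver KO 3, 9 without both, 4 without Liver WT 2, 3 without Liver KO 2 and 0 without Liver WT 1, while the median stayed between -1.96 and -1.26. The list's summed level in each library, given with the marker check, moves with these results, and how far the makeup of the hepatocyte preparations sets them was not tested.

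Stellate and Kupffer cell genes were mostly below 0 as well, with fewer calls. Of 28 stellate and fibroblast genes tested 11 were called below 0 and 0 above (median -1.30, or -1.20 relative to all genes), and of 34 Kupffer and macrophage genes 12 and 0 (median -1.20, or -1.10 relative). The shares called below 0 were 39.3% and 35.3%, beside 9.09% of all genes. Of the stellate genes 17 were lower and 0 higher in KO hepatocytes (median -0.95) and 5 higher and 0 lower in whole liver (0.28), out of 28, where 33.5% of all genes were higher. Of the Kupffer genes 15 were lower and 4 higher in hepatocytes (-0.66, and -0.22 without Hepatocyte WT 3), and 14 of 34 higher and 1 lower in whole liver (0.41). Over all genes 23.9% were higher and 13.8% lower in hepatocytes. Size factors left 5 and 3 called below 0, with medians of -1.19 and -1.09, and 1 Kupffer gene above. Stellate sums were 316, 192 and 568 FPKM in WT hepatocytes, 199.8, 159 and 169 in KO hepatocytes, 539, 553 and 596 in WT whole liver and 724, 644 and 727 in KO whole liver. Kupffer sums were 859, 567 and 1374 in WT hepatocytes, 707, 604 and 587 in KO hepatocytes, 1189, 1313 and 1289.8 in WT whole liver and 1660.3, 2332 and 1671 in KO whole liver. In both lists Hepatocyte WT 3 was the highest hepatocyte library and the sums of the whole liver KO libraries were above those of WT. *Dcn*, a matrix proteoglycan and the most abundant stellate gene, was at 72.4, 35 and 131 FPKM in WT hepatocytes, 43.4, 33.0 and 35.8 in KO hepatocytes, 121, 125 and 136 in WT whole liver, and 217, 213 and 224 in KO whole liver, a difference of -1.67 (limma adjusted p = 0.078). *Marco*, a Kupffer scavenger receptor, was at 43.2, 27.6 and 97.2 FPKM in WT hepatocytes, 20.7, 24.8 and 12.6 in KO hepatocytes, 46.0, 53.8 and 58.0 in WT whole liver, and 68.2, 102 and 88.1 in KO whole liver, a difference of -2.06 (limma adjusted p = 0.0626). *Ctsb*, the most abundant gene of the Kupffer list and one that many cell types express, was not called, at -0.32. No gene of either list was at 0 in every library, and the part of cell makeup in these differences was not tested. Without Hepatocyte WT 3 the medians were -0.89 and -0.82 with 7 and 4 called below 0, and without Liver WT 1 they were -1.23 and -1.16 with 0 and 1. The most calls, 24 and 27, came without Hepatocyte WT 2.

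*Slc40a1*, ferroportin, exports iron from macrophages and hepatocytes and is the target of hepcidin. It was chosen after its values were seen, because its call below 0 held in all 12 fits without 1 library. It was at 78.9, 69.4 and 92.4 FPKM in WT hepatocytes, 31.3, 34.0 and 31.5 in KO hepatocytes, 74.1, 78.7 and 81.6 in WT whole liver, and 59.2, 76.1 and 64.4 in KO whole liver. It fell by 1.29 in hepatocytes without overlap, was not called in whole liver (-0.24, limma adjusted p = 0.139), and had a difference of -1.06 (SE 0.16, adjusted p = 0.0206). Its WT hepatocyte libraries lay near the level of whole liver in all 3 replicates.

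*Inhbb*, the activin B subunit, a secreted growth factor of the TGF-beta family, was at 14.3, 13.7 and 12.8 FPKM in WT hepatocytes, 1.92, 2.54 and 1.33 in KO hepatocytes, 6.95, 11.3 and 13.4 in WT whole liver, and 12.0, 14.8 and 10.9 in KO whole liver. Only the KO hepatocyte libraries were low, and Hepatocyte WT 3 was no higher than its group. The change was -2.56 in hepatocytes and 0.28 in whole liver (limma adjusted p = 2.83e-05 and 0.372), and the difference of -2.84 (SE 0.33, adjusted p = 0.00511) was called in all 23 alternative settings. *Prok1*, prokineticin 1, a secreted peptide, was at 18.8, 15.5 and 11.4 FPKM in WT hepatocytes, 0.510, 3.06 and 0.750 in KO hepatocytes, 4.53, 6.01 and 6.45 in WT whole liver, and 6.18, 0.990 and 4.11 in KO whole liver. It too fell in hepatocytes, yet its difference of -2.46 (SE 0.78, limma adjusted p = 0.0908) was close to the threshold and missed it in 10 of the 12 fits without 1 library, among them 0.199 without Liver WT 1.

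Interleukin-1 beta, an inflammatory cytokine that macrophages and neutrophils release, had the most negative difference of all called genes. *Il1b* was at 4.43, 3.83 and 4.78 FPKM in WT hepatocytes, 0.690, 0.690 and 0.720 in KO hepatocytes, 1.07, 0.930 and 1.70 in WT whole liver, and 3.85, 8.0 and 2.41 in KO whole liver. The genotypes did not overlap in either compartment and moved in opposite directions, by -2.01 and 1.48, and WT hepatocytes were above WT whole liver. The difference of -3.49 (SE 0.44, limma adjusted p = 0.00948) was called in all 23 alternative settings, between -4.21 and -2.91. *Il1a*, its relative, was at 6.77, 4.98 and 7.0 FPKM in WT hepatocytes, 2.19, 1.11 and 1.07 in KO hepatocytes, 3.19, 4.17 and 4.31 in WT whole liver, and 5.47, 6.07 and 3.91 in KO whole liver. It fell in hepatocytes and was not called in whole liver, with a difference of -2.17 (SE 0.33, limma adjusted p = 0.0193). Of 23 cytokine and chemokine genes tested 5 were called below 0 and 2 above (21.7% and 8.70%, beside 9.09% and 2.98% of all genes). Without Liver WT 1 these counts were 2 and 1. The median was -0.65, or -0.55 relative to all genes. As 45 genes were listed, the filter on the mean of all libraries can select members by their change.

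The chemokines called above 0 were *Ccl9* and *Cxcl14*. *Ccl9*, which draws myeloid cells, was at 38.5, 40.1 and 40.8 FPKM in WT hepatocytes, 105, 87.4 and 97.1 in KO hepatocytes, 47.6, 51.0 and 45.4 in WT whole liver, and 64.0, 60.2 and 68.3 in KO whole liver. It rose in both compartments and further in hepatocytes, by a difference of 0.85 (SE 0.12, limma adjusted p = 0.0125). *Cxcl14* was listed at 0.030, 0 and 0 FPKM in WT hepatocytes and at 4.59, 5.28 and 4.17 in KO hepatocytes, beside 0.0700, 0.0700 and 0.0100 in WT and 1.69, 1.30 and 2.80 in KO whole liver, a difference of 1.24 (limma adjusted p = 0.0522). Of the secreted proteins the study names, *Ccl2*, *Cxcl10*, *Cxcl12*, *Il1rn* and *Timp1* had differences of -0.99, -0.65, -0.69, -0.54 and -0.52, none called.

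Matrix genes were mostly below 0. In whole liver 23 of 53 were higher and 2 lower in KO, beside 33.5% and 6.68% of all genes, and in hepatocytes 7 were higher and 19 lower. Fibrillar collagens and their small proteoglycans build the scar that activated stellate cells and fibroblasts lay down. Of 53 matrix genes tested 25 were called below 0 and 1 above (47.2% and 1.89%, beside 9.09% and 2.98% of all genes). The list median was -1.28, or -1.18 relative to all genes, from medians of -0.44 in hepatocytes and 0.74 in whole liver. *Lum*, lumican, a collagen-binding proteoglycan, was at 4.67, 1.92 and 10.4 FPKM in WT hepatocytes, 3.13, 4.27 and 2.78 in KO hepatocytes, 14.2, 12.3 and 13.6 in WT whole liver, and 47.5, 63.3 and 51.6 in KO whole liver. The whole liver genotypes did not overlap and the hepatocyte ones did, with a difference of -2.39 (SE 0.57, limma adjusted p = 0.0526). *Lum* was not called without Liver WT 1 (0.141), Liver WT 2 (0.106) or Liver KO 2 (0.114). *Postn*, periostin, was at 21.8, 10.8 and 60.9 FPKM in WT hepatocytes, 7.26, 7.78 and 7.25 in KO hepatocytes, 42, 42.1 and 62.3 in WT whole liver, and 63.2, 106 and 70.3 in KO whole liver. Its difference of -2.34 was -1.69 without Hepatocyte WT 3 (limma adjusted p = 0.0747 and 0.0617), and it was not called in 8 of the 12 fits without 1 library, among them 0.174 without Liver WT 1. *Col6a2*, a chain of collagen VI, was at 1.55, 1.01 and 6.2 FPKM in WT hepatocytes, 0.760, 1.06 and 0.770 in KO hepatocytes, 7.53, 6.86 and 10.1 in WT whole liver, and 15.9, 40.2 and 13.9 in KO whole liver. It had a difference of -2.33 (limma adjusted p = 0.0875), which was -1.69 and not called without Hepatocyte WT 3 (adjusted p = 0.105), and was called in 1 of the 12 fits without 1 library.

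*Mxra8* and *Capn6* were also among the most negative differences. *Mxra8*, a matrix remodelling receptor, was at 6.34, 2.93 and 10.1 FPKM in WT hepatocytes, 2.04, 1.57 and 1.24 in KO hepatocytes, 11.4, 11.9 and 9.93 in WT whole liver, and 19, 20.6 and 21.8 in KO whole liver. *Capn6*, a calpain without protease activity, was at 1.30, 0.450 and 2.62 FPKM in WT hepatocytes, 0.230, 0.870 and 0.380 in KO hepatocytes, 2.57, 2.27 and 2.21 in WT whole liver, and 6.90, 9.11 and 8.04 in KO whole liver. Both were highest in KO whole liver without overlap, and in hepatocytes the genotypes overlapped for *Capn6* alone. Their differences were -2.45 and -2.44 (limma adjusted p = 0.0349 and 0.0472), and for each of them Liver WT 1 was the single library without which it was not called.

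Collagen I itself was less clear. *Col1a1* was at 1.98, 0.840 and 9.4 FPKM in WT hepatocytes, 2.20, 3.27 and 2.35 in KO hepatocytes, 18.9, 19.1 and 26.0 in WT whole liver, and 66.9, 112 and 55.2 in KO whole liver. It rose in whole liver, by 1.80, but Hepatocyte WT 3 was far above its group and the difference of -1.86 was not called (limma adjusted p = 0.181). *Col1a2* at -2.33 and *Pdgfra*, a receptor of fibroblasts, at -0.97 were called (limma adjusted p = 0.0726 and 0.0798). *Fn1*, the most abundant matrix gene and one that hepatocytes make, was at 693, 824 and 723 FPKM in WT hepatocytes, 684, 628 and 719.8 in KO hepatocytes, 753, 736 and 764 in WT whole liver, and 810.0, 825 and 734 in KO whole liver. It did not follow the list, at -0.21 (limma adjusted p = 0.313). *Col4a3*, a basement membrane collagen, was the 1 matrix gene called above 0, at 1.56, 1.11 and 0.740 FPKM in WT hepatocytes, 2.17, 2.98 and 2.64 in KO hepatocytes, 1.33, 1.23 and 1.09 in WT whole liver, and 0.640, 0.320 and 0.460 in KO whole liver (1.77, limma adjusted p = 0.0271). Summed matrix FPKM was 1449, 1465 and 2069.9 in WT hepatocytes, 1284, 1217 and 1266 in KO hepatocytes, 2156, 2139 and 2381 in WT whole liver, and 2976, 3531 and 2751 in KO whole liver. No listed member was at 0 throughout, and the part of cell makeup was not tested. Called below 0 were 15 after size factors, 21 without Hepatocyte WT 3, 11 without Liver KO 3, 5 without Liver WT 2 and 4 without Liver KO 2. Over all fits without 1 library that count lay between 0 without Liver WT 1 and 38 without Hepatocyte WT 2.

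**Figure D4:**
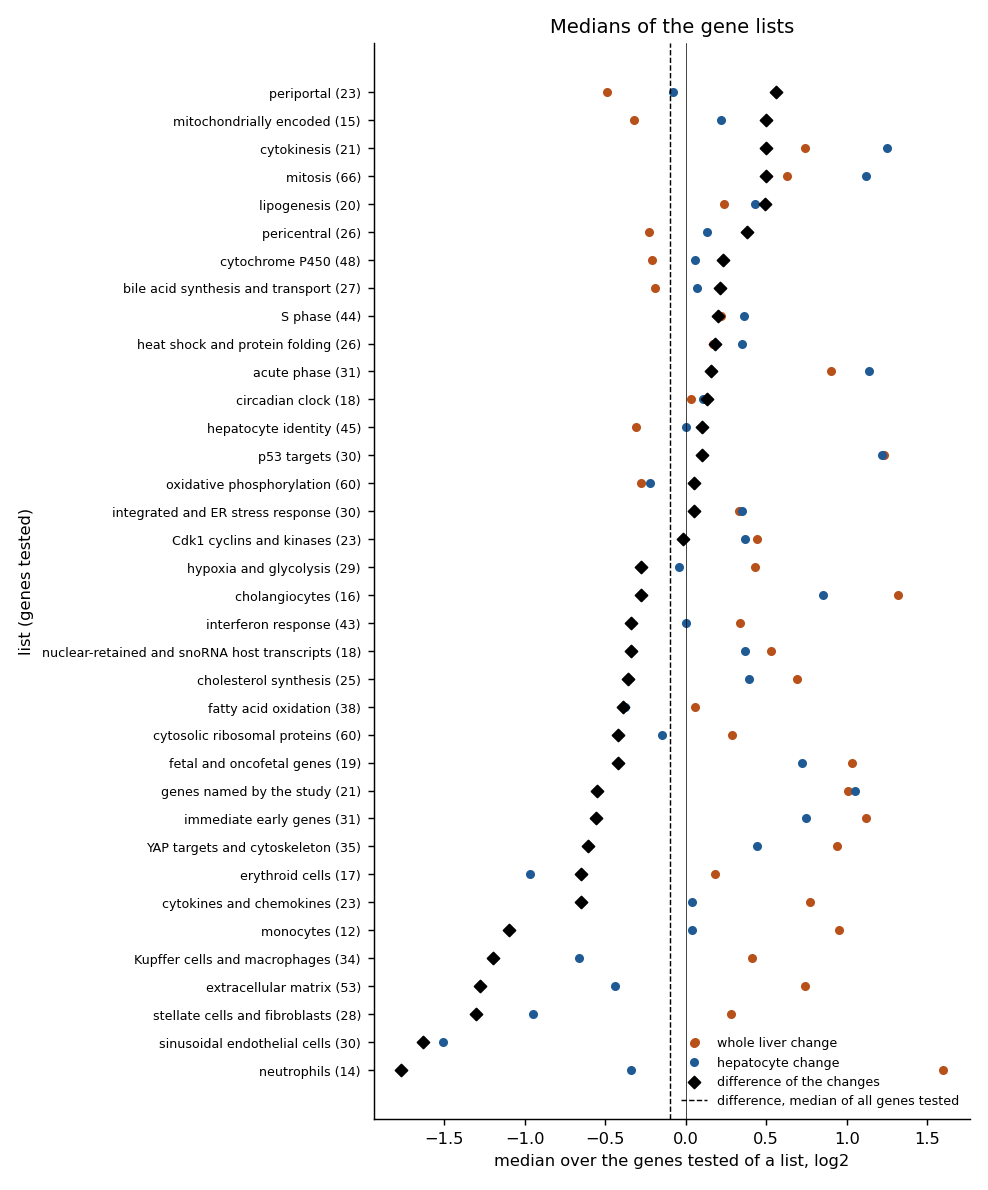
Medians of the interaction difference (black diamonds), hepatocyte change (blue) and whole liver change (orange) in log2 over the genes tested of each list with at least 12 of them, with the dashed line at -0.10, the median difference of all genes. Endothelial, stellate, matrix and Kupffer lists lie at -1.63 to -1.20, neutrophil genes, whose median the filter can lower, at -1.77, and periportal genes highest, at 0.56.

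Stefins of the Stfa cluster are cysteine protease inhibitors of neutrophils and share sequence, so reads between them are uncertain. *Stfa2* was at 0.340, 0 and 1.03 FPKM in WT hepatocytes, 0.21, 0.18 and 0.160 in KO hepatocytes, 1.70, 1.10 and 1.39 in WT whole liver, and 4.61, 17.5 and 11.6 in KO whole liver. It rose in whole liver without overlap and overlapped in hepatocytes, with a difference of -2.80 (SE 0.64, limma adjusted p = 0.0506). It was not called without Liver WT 1 (0.134), Liver WT 2 (0.103), Liver KO 2 (0.101), or both Hepatocyte WT 3 and Liver KO 3 (0.118). *BC100530*, from the same cluster, was at 0.330, 0.320 and 1.70 FPKM in WT hepatocytes, 0.0800, 0.260 and 0.200 in KO hepatocytes, 2.67, 1.88 and 2.78 in WT whole liver and 5.31, 20.1 and 13.7 in KO whole liver, and *Stfa3* was at 0.360, 0.690 and 0.870, at 0, 0.15 and 0.170, at 1.56, 1.41 and 1.36, and at 2.23, 9.83 and 7.23 in the same order. Both were lowest in KO hepatocytes and highest in KO whole liver without overlap of genotypes, with differences of -2.79 and -2.53 (limma adjusted p = 0.0513 and 0.049). *BC100530* lost its call without the same libraries as *Stfa2*, and *Stfa3* without Liver WT 1 or without both. They were the 3 genes called (21.4%, beside 9.09% of all genes below 0) of 14 neutrophil genes tested, of 24 listed. The filter on the mean of all libraries lets in genes that are high in KO whole liver alone, such as *Stfa2* and *Stfa3*, and so can lower the list's median of -1.77, or -1.67 relative to all genes. It was -1.29 without Hepatocyte WT 3, and 0 were called without Liver WT 1 or without both Hepatocyte WT 3 and Liver KO 3. *S100a8* and *S100a9*, the abundant calgranulins, are named after their values were seen: *S100a9* was at 6.32, 4.90 and 21.5 FPKM in WT hepatocytes, 8.78, 4.43 and 8.18 in KO hepatocytes, 30.0, 19.3 and 30.9 in WT whole liver and 40.3, 146 and 114 in KO whole liver. Neither was called, at -1.86 and -2.07 (limma adjusted p = 0.18 and 0.139). The list's sum was ruled by *Lcn2*, which is on the acute phase list too, at 450.1, 559 and 963 FPKM in KO hepatocytes and 383, 662 and 516 in KO whole liver, against 8.37 to 10.1 and 11.7 to 14.5 in WT, and with a difference of 0.82 (limma adjusted p = 0.195).

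*Ms4a7*, a membrane gene of macrophages, was at 1.19, 0.860 and 2.29 FPKM in WT hepatocytes, 0.290, 0.280 and 0.430 in KO hepatocytes, 0.970, 0.70 and 1.53 in WT whole liver, and 2.80, 6.27 and 3.50 in KO whole liver. It moved in opposite directions without overlap, with a difference of -2.71 (SE 0.45, limma adjusted p = 0.0306, and 0.103 without Liver WT 1). Of 20 monocyte genes listed only 12 passed the filter, which can select members by their change here as for neutrophils. Of these 5 were called below 0 (41.7%, beside 9.09% of all genes) and 0 above, with a median of -1.10, or -0.99 relative to all genes. None was called without Liver WT 1, Liver WT 2, Liver WT 3 or Liver KO 2. Monocyte sums are ruled by *Fn1* and lay between 664 and 850.5 FPKM in hepatocytes and 822 and 1034 in whole liver. Of 39 erythroid genes listed only 17 were tested, so the filter can select members by their change here too. Of the 17, 2 (11.8%, beside 9.09% of all genes) were called below 0, with a median of -0.65, or -0.55 relative to all genes. Erythroid genes summed to 344, 298 and 813 FPKM in WT hepatocytes, 229.6, 259 and 160.2 in KO hepatocytes, 1301, 1429 and 2387 in WT whole liver and 1359.7, 1990.5 and 1664 in KO whole liver, with *Hbb-bs* the most abundant and *Hbb-bh1* at 0 in all libraries. These sums differed between libraries of a group, and their part in the differences was not tested. No gene of 9 B cell genes tested, of 24 listed, and 1 of 10 T and NK cell genes, of 30 listed, was called.

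Loss of *Cdk1* touches cell division most directly, and the mitosis list was higher in KO in both compartments. Cells that replicate but cannot enter mitosis can keep mitotic transcripts, and whether this applies here was not tested. Of 66 mitosis genes tested 61 were higher in KO hepatocytes and 45 in KO whole liver, beside 23.9% and 33.5% of all genes, and 0 lower in either. The median difference was 0.50, or 0.61 relative to all genes, with 4 (6.06%, beside 2.98% of all genes) called above 0 and 0 below. *Hmmr*, a spindle protein, was at 4.42, 2.71 and 3.68 FPKM in WT hepatocytes, 16.2, 22 and 10.7 in KO hepatocytes, 3.18, 2.60 and 2.66 in WT whole liver, and 5.71, 4.96 and 7.23 in KO whole liver, the largest difference of the list at 1.04 (SE 0.34, limma adjusted p = 0.0966). Hepatocyte KO 3 was the lowest of its group here, as in the list's sum, which was 1165, 1348 and 732 FPKM in KO hepatocytes, 735, 681 and 865 in KO whole liver, and 383 to 485 and 404 to 499 in the WT groups. Without Hepatocyte KO 3, 21 mitosis genes were called above 0 (median 0.77), and 0 were without Hepatocyte WT 3, Hepatocyte KO 1, Liver KO 2 or any WT whole liver library. The median lay between 0.29 and 0.77 over the fits without 1 library, with few single genes called.

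S phase genes gave 5 called above 0 (11.4%, beside 2.98% of all genes) and 0 below of 44, with a median of 0.20, or 0.31 relative to all genes. In whole liver 7 were higher and 2 lower in KO, beside 33.5% and 6.68% of all genes. In hepatocytes 20 were higher and 1 lower, beside 23.9% and 13.8%. Without Liver WT 1 the count was 0 and without Hepatocyte KO 3 it was 10, and the median lay between 0.08 and 0.40. *Rrm2*, which makes deoxynucleotides, was at 15, 18.8 and 18.9 FPKM in WT hepatocytes, 64.8, 56.5 and 38.3 in KO hepatocytes, 18.0, 16.2 and 17.5 in WT whole liver, and 18.8, 20.4 and 24.9 in KO whole liver. It rose in hepatocytes by 1.55 and was not called in whole liver, with a difference of 1.25 (SE 0.25, limma adjusted p = 0.043). *Esco2*, which ties sister chromatids together in S phase, was placed on the cytokinesis list and is not part of these S phase counts. It was called above 0 in all 12 fits without 1 library. It was at 4.0, 3.33 and 3.30 FPKM in WT hepatocytes, 22, 23.4 and 16.2 in KO hepatocytes, 3.92, 3.38 and 2.81 in WT whole liver, and 6.91, 4.82 and 6.84 in KO whole liver. Its difference was 1.58 (SE 0.25, limma adjusted p = 0.0213). Of the cyclins and partners of *Cdk1* that the study names, *Ccnb1*, *Ccna2* and *Cdk2* had differences of 0.68, 0.26 and -0.13, none called. *Cdk4*, the most abundant kinase of its list, was called below 0: it went from 40.8, 37.8 and 52.8 to 32.8, 33.9 and 28.5 FPKM in hepatocytes and from 44.6, 46.9 and 50.7 to 58.6, 80.1 and 59.0 in whole liver, a difference of -0.91 (limma adjusted p = 0.0509). Of 30 p53 targets tested 1 was called above 0 and 1 below (3.33% each, beside 2.98% and 9.09% of all genes), with a median of 0.10, or 0.21 relative to all genes. The median lay between -0.04 without Liver KO 1 and 0.27 without Liver KO 2. After size factors 4 were called above and 1 below 0 with a median of 0.24. The median change was 1.22 in hepatocytes and 1.23 in whole liver.

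Housekeeping lists differed by less than 1 log2. All 15 transcripts of the mitochondrial genome had differences above 0, beside 4577 of the 12282 genes tested. Of the 15, 6 were called (40.0%, beside 2.98% of all genes), with a list median of 0.50, or 0.60 relative to all genes. The count was 0 without Liver WT 1, 1 without Liver WT 3 or Liver KO 2, 4 without Hepatocyte WT 3 and 3 without Liver KO 3. *mt-Co1*, the most abundant, was at 17671, 18240.1 and 18795 FPKM in WT hepatocytes, 25991, 22013 and 22247 in KO hepatocytes, 17065, 16308 and 17438 in WT whole liver, and 15457, 13879 and 15377 in KO whole liver (0.54, limma adjusted p = 0.061). The rise in hepatocytes and the lower KO whole liver values were each without overlap, while none of 60 nuclear genes of oxidative phosphorylation was called (median 0.05, or 0.15 relative to all genes), nor after size factors. Cytosolic ribosomal protein genes were all below 0, 60 of 60, beside 7705 of the 12282 genes tested. Of the 60, 12 were called (20.0%, beside 9.09% of all genes), with a list median of -0.42, or -0.32 relative to all genes. That count was 2 after size factors, 2 without Hepatocyte WT 3, 3 without Liver KO 3, 0 without Liver WT 1 and 23 without Liver KO 1. Fatty acid oxidation genes had 10 of 38 called below 0 (26.3%, beside 9.09% of all genes) and 0 above, with a median of -0.39, or -0.29 relative to all genes. After size factors 1 was called, and 0 without Liver WT 1. *Acat1*, mitochondrial thiolase, was at 459, 459 and 408 FPKM in WT hepatocytes, 178, 161 and 155 in KO hepatocytes, 406, 463 and 411 in WT whole liver and 274, 220.0 and 265 in KO whole liver, and is named after its values were seen. It fell in both compartments and further in hepatocytes, by a difference of -0.67 (limma adjusted p = 0.0488).

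Cytoskeleton and YAP target genes respond to cell tension and rise in wounded tissue. Of 35 tested 10 were called below 0 (28.6%, beside 9.09% of all genes) and 0 above, with a median of -0.61, or -0.51 relative to all genes. The count below 0 was 0 without Liver WT 1, 2 without Liver WT 2 or Liver KO 2, 7 without Hepatocyte WT 3 and 6 without Liver KO 3. *Actb*, the most abundant, was at 245, 272 and 344 FPKM in WT hepatocytes, 233, 258 and 177 in KO hepatocytes, 326, 353 and 379 in WT whole liver, and 469, 602 and 460.2 in KO whole liver, a difference of -0.89 (limma adjusted p = 0.0626). *S100a6*, a calcium-binding protein of stroma and bile ducts, went from 1.54, 0.730 and 1.79 to 2.94, 1.29 and 4.55 FPKM in hepatocytes and from 4.6, 4.78 and 5.19 to 31.7, 30.7 and 27.6 in whole liver. Its rise was the larger in whole liver, by a difference of -1.70 (limma adjusted p = 0.0657). Of 16 cholangiocyte genes tested 2 were called below 0 (12.5%, beside 9.09% of all genes), with a median of -0.28, or -0.18 relative to all genes. The median was -0.11 without Liver KO 1, and 0 were called without Liver WT 1. No gene of 43 interferon genes was called in either direction. That list leaned on Liver KO 1: its sum was 4276 FPKM there and 2242 and 2194 in the other KO whole liver libraries, and without Liver KO 1 the median of -0.34, or -0.24 relative to all genes, became 0.15.

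The remaining lists held few calls. Counts here are of called genes, with list medians in brackets, and stand beside 2.98% above and 9.09% below 0 of all genes. On the cytokinesis list 2 of 21 genes were above 0 (median 0.50, and 0.22 without Hepatocyte KO 2). They were *Diap3* and *Esco2*, the latter a gene of S phase. Of 23 cyclins and kinases around *Cdk1* only *Cdk4* was called (median -0.02, or 0.10 after size factors), and of the 21 genes the study names 3 were below 0 and 0 above (median -0.55). Stress lists gave 0 of 26 heat shock genes (median 0.18, with 4 above 0 and a median of 0.30 after size factors), 1 above 0 of 30 genes of the integrated and ER stress response (0.05), 2 below 0 of 31 immediate early genes (-0.56, and -0.25 without Liver KO 2) and 1 below 0 of 29 genes of hypoxia and glycolysis (-0.28, and -0.07 without Liver KO 2). Cholesterol synthesis had 0 of 25 called with a median of -0.36, which was 0.00 without Hepatocyte KO 1 and -0.76 without Hepatocyte KO 2, when 12 were below 0. Circadian clock genes had 1 above 0 of 18 (0.13) and fetal genes 2 below 0 of 19 (-0.42, and -0.25 without Hepatocyte WT 3). Nuclear-retained and snoRNA host transcripts had 2 below 0 of 18 (-0.34, and -0.08 without Liver KO 2). Megakaryocyte genes had 0 of 9 (-0.94), mast cell genes 1 below 0 of 2 (-0.60) and sex markers 0 of 9 (-0.07). Smooth muscle and mesothelium genes had 0 of 7 (-0.81, and -0.20 without Liver KO 1), and pancreatic enzymes 2 above 0 of 8 (0.87). The median change of the pancreatic genes was -3.40 in hepatocytes and -3.31 in whole liver. Of the 8, 5 were lower and 0 higher in KO hepatocytes, and 7 lower and 1 higher in KO whole liver. B cell genes had a median of -0.48 and T and NK cell genes of -0.65. Of 20 megakaryocyte, 16 mast cell, 20 smooth muscle and mesothelium and 31 pancreatic genes listed, 9, 2, 7 and 8 were tested. In these lists, and in the B cell and the T and NK cell lists, the filter can select members by their change. Without Hepatocyte WT 3 the medians were -0.06 for B cell, -0.57 for megakaryocyte and 0.41 for pancreatic genes. *Amy1* led the pancreatic sums, 4 of whose members, *Pla2g1b*, *Pnlip*, *Prss1* and *Try5*, were at 0 in all libraries, as were *Fcer1a* and *Mcpt1* of the mast cell list.

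More genes were called in every fit without 1 library and, *Arl2* aside, were chosen after their values were seen. *Gm8730*, a processed pseudogene, had the lowest adjusted p: it was at 0.970, 0.980 and 1.42 FPKM in WT hepatocytes, 1.43, 1.28 and 1.18 in KO hepatocytes, 1.11, 1.33 and 1.24 in WT whole liver, and 12.7, 14 and 14.1 in KO whole liver. All 3 KO whole liver libraries stood above the other 9, with a difference of -2.87 (SE 0.18, limma adjusted p = 7.98e-05), and as a pseudogene it may share reads with its parent gene. *Rbm3*, a cold-inducible RNA-binding protein, was at 95.9, 91.3 and 91.6 FPKM in WT hepatocytes, 61.9, 66.5 and 61.8 in KO hepatocytes, 94.8, 94.3 and 92.2 in WT whole liver, and 120.2, 157 and 137 in KO whole liver. It moved by -0.55 and 0.55, a difference of -1.10 (SE 0.13, limma adjusted p = 0.00511). *Dkk3*, a secreted Wnt modulator, was at 0.810, 0.620 and 0.900 FPKM in WT hepatocytes, 0.520, 0.450 and 0.40 in KO hepatocytes, 1.62, 1.66 and 1.6 in WT whole liver, and 4.05, 4.16 and 4.07 in KO whole liver, a difference of -1.52 (SE 0.17, limma adjusted p = 0.00511). *Rbm3* and *Dkk3* fell in hepatocytes and rose in whole liver, and *Gm8730* was not called in hepatocytes (0.16, limma adjusted p = 0.385). *Aass*, which degrades lysine, was at 44.5, 42.8 and 46.1 FPKM in WT hepatocytes, 91.9, 85.6 and 96.6 in KO hepatocytes, 53, 39.1 and 43.4 in WT whole liver and 35.2, 29.5 and 35.1 in KO whole liver, a difference of 1.46 (SE 0.16, limma adjusted p = 0.00511). *Arl2*, a small GTPase that the study names, was at 2.80, 3.04 and 3.73 FPKM in WT hepatocytes, 1.54, 1.40 and 1.6 in KO hepatocytes, 3.46, 3.71 and 3.95 in WT whole liver and 3.97, 4.91 and 4.35 in KO whole liver, a difference of -1.09 (SE 0.17, limma adjusted p = 0.0206).

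**Figure D5:**
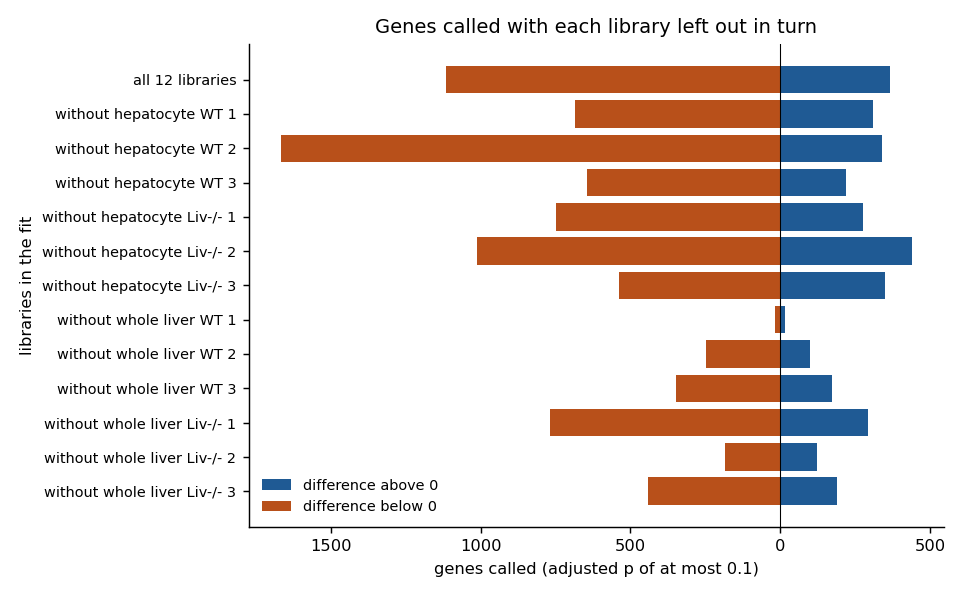
Genes called above 0 (blue, to the right) and below 0 (orange, to the left) with all 12 libraries and in the 12 fits that omit a single library. The pair of counts falls from 366 and 1116 to 17 and 16 without Liver WT 1, and the count below 0 is highest, at 1668, without Hepatocyte WT 2.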

How the data were processed

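Polyadenylated RNA of 12 libraries was compared, in 4 groups of 3 taken from the labels. FPKM values were deposited by the authors, who aligned reads with STAR to mm10 and quantified genes with RSEM 1.2.31. From these, log2(FPKM + 0.5) was fitted by group with limma 3.58.1 (R 4.3.3, empirical Bayes with a trend) over the 12282 genes with a mean of at least 1 FPKM, of 47069 listed, and p-values were adjusted by Benjamini-Hochberg with a threshold of 0.1. Tables and figures were made with Python 3.11.15, pandas 2.3.3, numpy 2.4.6 and matplotlib 3.10.9. The fit was tested on simulated data with the spread of the WT whole liver libraries in all 4 groups. That test does not cover groups of unlike spread or libraries that stand apart from their group. Sequencing depth is not stated: from the steps between low FPKM values, 1 FPKM on 1 kb corresponds to about 34.9 to 49.9 reads per library.

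Named genes are the 12 protein-coding genes called with the highest interaction difference and the 12 called with the lowest, Cdk1, Alb, the genes the study names, and of each list discussed up to 3 members with the largest and 3 with the smallest difference and its most abundant member. Others are marked as chosen after their values were seen. Members and lists (43 lists, 1299 genes, 79 of them on more than 1) were chosen with earlier results of these data known. Gene lists were described by counts and medians with no set test. Alternatives were other pseudocounts, filters, scalings (median-ratio size factors, equal sums), a fit without trend, array weights, the replicate number as a block, a threshold of 0.05, and fits without 1 library or without Hepatocyte WT 3 and Liver KO 3. Promoter sequences were read from RefSeq on GRCm38.p6.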

Additional observations from a re-analysis of the deposited data

Results flagged for a closer look

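Each result here was picked out because the change with genotype differed between the 2 tissues, isolated hepatocytes and whole liver, by a limma test of the difference itself. Over all genes this held for 366 above 0 and 1116 below 0. Among protein-coding genes the largest differences were Nnmt 3.68, Upp2 3.36, Mup3 3.18, Cyp17a1 3.10, Thrsp 2.96, Mup2 2.93, Prodh 2.86, Hamp2 2.79, Cyp2a5 2.68, Orm3 2.62, Gpt 2.59 and Wfdc21 2.58. The most negative were Il1b -3.49, Inhbb -2.84, Stfa2 -2.80, BC100530 -2.79, Ms4a7 -2.71, Stfa3 -2.53, Prok1 -2.46, Mxra8 -2.45, Capn6 -2.44, Lum -2.39, Postn -2.34 and Col6a2 -2.33.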

How the results depend on the processing

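Upp2, Mup2, Gpt, Il1b and Inhbb, of the 24 most extreme named differences, were past the threshold in each of the 23 alternatives. All 24 kept their sign, which genes chosen as the most extreme would seldom fail to do. With all libraries the counts were 366 above and 1116 below 0, and 123 and 514 with a size of at least 1 log2. Pseudocounts of 0.1 and 1 gave 334 and 999, and 382 and 1167, a filter at a mean of 0.1 FPKM gave 327 and 975, equal sums 347 and 1232, and a fit without trend 349 and 1022.

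Without a filter the counts were 174 and 405, and 75 and 173 with the size threshold, as limma then fits and adjusts over more genes. Size factors gave 487 below 0, 278 with the size threshold, and 3212 genes called for the whole liver change, and all 487 were among the 1116. Array weights gave 7499 for the whole liver change. The cause was not tested for either. At a threshold of 0.05 the counts were 91 and 166, and 57 and 96 with the size threshold, since fewer genes pass.

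Replicate numbers were not taken as pairs: same-numbered libraries correlated between -0.37 and 0.29 over 18 pairs, 4 of them above 0.1. With the replicate number as a block 200 genes were called above and 441 below 0, and 226 below with the size threshold, and 20 of the 24 named genes were called. The cause was not tested.

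Leaving out 1 library gave 17 to 441 genes called above 0 and 16 to 1668 below, and 15 to 166 and 16 to 908 with the size threshold. Without Liver WT 1 the counts were 17 and 16 (15 and 16 with the size threshold), and 5 of the 24 named genes were called. Without Liver WT 2 they were 99 and 249 (65 and 121), without Liver WT 3 174 and 348 (202 below), without Liver KO 2 124 and 185 (69 and 96), and without Liver KO 3 191 and 441 (236 below). In hepatocytes, without WT 1 there were 685 below (324), without WT 3 219 above and 646 below (298 below), and without KO 3 539 below (225). Without Hepatocyte WT 2 there were 908 below with the size threshold. Without Hepatocyte WT 3 and Liver KO 3 the counts were 100 and 265 (70 and 178). Fewer libraries leave a less precise estimate, but the cause of the spread between libraries was not tested. Of the 1482 called genes, 33 were called in all of the 12 fits without 1 library. At 34.9 to 49.9 reads for 1 FPKM on 1 kb, values under about 0.1 FPKM rest on few reads.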
